A study of Mus musculus with 12 samples.

Results

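The comparison described here set TβRII-cKO cells against TβRII-Het cells within set 2, the collection in which the labels call the cKO stem cells aberrantly quiescent and the Het stem cells activated. It took every array of that set, 6 of the 12 in the series, with 3 cKO arrays and 3 Het arrays paired by sorted fraction. The fractions were total keratinocytes and 2 pools of hair follicle stem cells (HFSCs), from the hair germ (HG) and from the bulge. The cKO group therefore held aberrantly quiescent HG cells, aberrantly quiescent bulge cells and total keratinocytes of TβRII-cKO mice. The Het group held activated HG cells, activated bulge cells and total keratinocytes of TβRII-Het mice. All cells came from untreated female back skin at 72 to 74 days of age, on a mixed background of C57BL/6 and CD1, and were sorted with the Rosa26-YFP reporter, P-cadherin and CD34. TβRII is the type II TGF-beta receptor, encoded by Tgfbr2. The driver of the conditional deletion, the number of mice behind an array and whether fractions shared mice are not stated in the labels. The other 6 arrays, set 1, held the same fractions of both genotypes with stem cells that the labels call quiescent, and are used below only where a difference between the sets was measured.

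TGF-beta ligands bring the type II receptor together with the type I receptor, which then phosphorylates Smad2 and Smad3. BMP ligands work through related receptors and Smad1, Smad5 and Smad8, and keep resting follicle stem cells quiescent. At the change from rest (telogen) to growth (anagen) the hair germ, a small cluster of cells between the bulge and the dermal papilla, divides before the bulge does, turns on Shh and the Wnt effector Lef1, and gives rise to the lineages of the hair shaft and inner root sheath.

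Signals were MAS5 values in log2, and a difference is always cKO minus Het within a fraction on that scale. Values below 20.7 signal units, 4.37 on the log2 scale, were set to this floor. Each fraction and genotype had 1 array, so the observations of a genotype are fractions, and the p-values measure the spread of the genotype difference between 3 fractions and not between mice. Median signal per array was 96.2 in cKO HG and 63.9 in Het HG, 96.9 in cKO bulge and 79.6 in Het bulge, and 66.3 in cKO and 65.5 in Het total keratinocytes. The difference in median signal was largest in the HG pair, which had the most genes apart, and its part in the results was not tested. Tgfbr2 gave 11.31, 11.89 and 11.78 on the cKO arrays of HG, bulge and total keratinocytes, against 10.35, 11.92 and 11.68 on the Het arrays. With the probe set used, the cKO value was below its Het value in bulge alone, at 11.894 against 11.916. The other Tgfbr2 probe sets lay at or near the floor on every array of set 2. Where the probes lie relative to the deleted part is not stated in the labels, so this does not check the genotypes. The sort markers held their order in each genotype. Cd34 was 14.50 in cKO bulge and 14.79 in Het bulge, against 8.21 in cKO HG and 7.65 in Het HG.

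The size of the genotype difference in each fraction was described by counting genes at least 2-fold apart whose higher array exceeded 84.7 signal units, the median of all arrays pooled. The HG pair differed most. In HG, 1997 of 11807 genes were higher in cKO (16.9%) and 997 lower (8.44%). In bulge, 1047 of 12223 genes were higher (8.57%) and 784 lower (6.41%). In total keratinocytes, 315 of 11232 genes were higher (2.8%) and 511 lower (4.55%). The same counts in set 1 came to 370 higher and 427 lower in HG, 898 and 369 in bulge, and 227 and 160 in total keratinocytes. All 3 fractions thus had more genes apart in set 2, 2994 against 797 in HG, 1831 against 1267 in bulge and 826 against 387 in total keratinocytes. The excess of higher genes depended on the scaling, since after quantile normalization the share of these genes that were higher in cKO was 49.0% in HG, against 66.7% as deposited, and 38.8% in bulge, against 57.2%. With 1 array against 1 array these counts have no test.

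**Figure D1:**
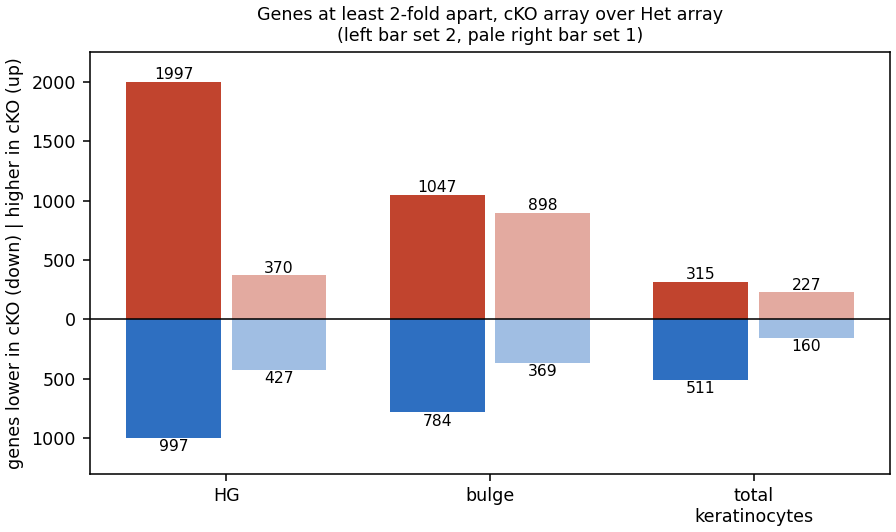
Number of genes at least 2-fold apart between the cKO and the Het array of a fraction, higher in cKO upwards and lower in cKO downwards, with full colour for set 2 and pale colour for set 1. The HG pair of set 2 has 1997 genes higher and 997 lower in cKO, against 370 and 427 in set 1.

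A test over the 3 pairs asked which genes differed by genotype in every fraction alike. With limma's moderated test, the fraction as a block and Benjamini-Hochberg adjustment over 11931 genes, 0 genes passed an adjusted p of 0.05 (0%), the smallest being 0.181. Unadjusted, 558 genes had p under 0.05 and were higher in cKO (4.68%) and 531 were lower (4.45%). The sign was the same in all 3 pairs for 1546 genes higher in cKO (13%) and 1837 genes lower (15.4%). These fits had 2 residual degrees of freedom. The 3 pairs resembled each other unequally. Across the tested genes, which are not independent replicates, the differences of HG and total keratinocytes correlated at r = 0.331, those of HG and bulge at 0.213, and those of bulge and total keratinocytes at -0.152.

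The count depended on which fractions and arrays entered. Without the bulge pair, 35 of 11185 genes passed (0.313%), of which 31 were lower in cKO. Without the HG pair, 13 of 11455 genes passed (0.113%), and without the total keratinocyte pair, 15 of 11645 genes passed (0.129%), all higher in cKO. When the spread was estimated over all 12 arrays, with an effect for each set, 14 of 12738 genes passed for set 2 (0.11%), 8 that rose and 6 that fell in cKO. That fit was an alternative to the one over set 2 alone and had 4 residual degrees of freedom. Its spread draws on the pairs of set 1 too, where fewer genes were apart. Its SEs and adjusted p-values therefore do not measure the spread within set 2 alone. Fits without a pair rest on 1 residual degree of freedom and on 2 fractions, and their calls are given with the fit named.

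Cell division genes were lower in cKO, in HG and total keratinocytes throughout and in bulge less evenly. Of 41 tested genes of the cell cycle list, 30 were lower in all 3 pairs and 0 were higher in all 3, where 15.4% and 13% of all tested genes were. Their median difference was -1.42 in HG, -0.29 in bulge and -1.02 in total keratinocytes, beside medians over all tested genes of 0.08, -0.03 and -0.04. In HG, 33 of the 41 were at least 2-fold lower, in total keratinocytes 21 and in bulge 6, beside 8.44%, 4.55% and 6.41% of all genes. All 41 were lower in HG and in total keratinocytes, and 30 were lower in bulge. In set 1 the medians of the same genes were -0.20, 0.09 and -0.08. In such bulk fractions, fewer dividing cells and less of the transcript per cell cannot be told apart. By the limma test over set 2 alone, 28 of the 41 had an unadjusted p under 0.05, all lower, beside 4.45% of all tested genes. None of the 41 passed the adjusted threshold.

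**Figure D2:**
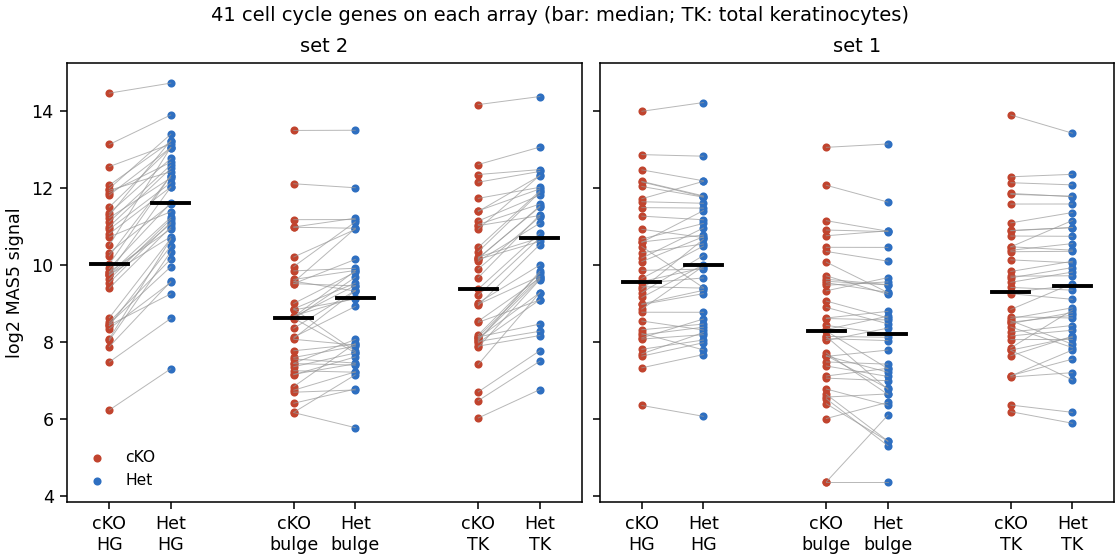
log2 MAS5 signal of the 41 tested cell cycle genes on each array, with a grey line joining the cKO and the Het value of a gene, for set 2 on the left and set 1 on the right. In set 2 every line rises towards Het in HG and in total keratinocytes, with median differences of -1.42 and -1.02 (cKO minus Het), while the medians of set 1 are -0.20 and -0.08.

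All 6 genes that fell in cKO in the fit with the spread of 12 arrays act in mitosis, and 2 of them, Cdc20 and Birc5, were on the cell cycle list. Cdc20, which activates the anaphase-promoting complex, read 11.29, 9.56 and 11.40 on the cKO arrays of HG, bulge and total keratinocytes, against 13.24, 10.96 and 12.32 on the Het arrays. The cKO value was the lower in each fraction, and the mean difference was -1.42 (SE 0.23, adjusted p = 0.0475 in limma's 12-array fit). Birc5, the survivin subunit of the chromosomal passenger complex, read 10.25, 8.10 and 9.91 in cKO, against 12.33, 9.34 and 11.26 in Het, a mean difference of -1.56 (SE 0.26, adjusted p = 0.0485). Cdca8, the borealin subunit of the same complex, read 10.70, 8.84 and 10.65 in cKO, against 12.46, 10.15 and 11.45 in Het (adjusted p = 0.0475). These 3 genes had their largest difference in HG.

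The chromosome-binding kinesin gene Kif22 read 10.52, 8.75 and 10.65 in cKO, against 11.98, 10.25 and 11.77 in Het, a mean difference of -1.36 (SE 0.20, adjusted p = 0.0344). Its difference was nearly even over the fractions, at -1.46, -1.50 and -1.12. Cep55, needed for the final separation of daughter cells, averaged -1.43 (SE 0.23, adjusted p = 0.0475) and the mitotic kinase gene Pbk -1.30 (SE 0.21, adjusted p = 0.0475). Aurkb, the kinase of the passenger complex, had a mean difference of -1.58 (SD 0.47 over 3 pairs), and Racgap1, which organises the cleavage furrow, differed by -1.53 (SD 0.65). Neither passed in the 12-array fit, with adjusted p = 0.0877 for Aurkb and 0.0799 for Racgap1.

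Bulge was the exception for part of the list. Mki67, the proliferation marker, was 11.82 in cKO HG, 9.59 in cKO bulge and 10.17 in cKO total keratinocytes, against 13.06, 9.33 and 11.54 in Het. The cKO value was thus lower in HG and total keratinocytes and higher by 0.26 in bulge. Of the 11 genes higher in cKO bulge, the replication licensing gene Cdc6 had the largest difference, 1.10, and the S-phase cyclin gene Ccne2 differed by 0.90. Cyclin D1, encoded by Ccnd1 and needed to enter the cell cycle, was lower by 1.10 in HG, 1.57 in bulge and 0.14 in total keratinocytes, where its cKO values of 11.56, 10.60 and 12.44 stood against 12.66, 12.17 and 12.58 in Het.

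Because the genes that fell moved together and all act in mitosis, the RefSeq promoter windows of these genes (GRCm38.p6, 250 bases before to 50 after the start site) are shown, with windows found for 5 of the 6. Capitals mark matches on either strand to the cell cycle genes homology region (TTTGAA or TTCAAA), known as a binding element of the complexes that time mitotic genes, and to the CCAAT box (CCAAT or ATTGG). Each reads 5′ to 3′ on the strand of the gene, on the minus strand at chr4:118437294-118437593 for Cdc20, the minus strand at chr4:124936868-124937167 for Cdca8, the minus strand at chr7:127042371-127042670 for Kif22, the plus strand at chr19:38054791-38055090 for Cep55 and the plus strand at chr11:117848987-117849286 for Birc5.
Cdc20: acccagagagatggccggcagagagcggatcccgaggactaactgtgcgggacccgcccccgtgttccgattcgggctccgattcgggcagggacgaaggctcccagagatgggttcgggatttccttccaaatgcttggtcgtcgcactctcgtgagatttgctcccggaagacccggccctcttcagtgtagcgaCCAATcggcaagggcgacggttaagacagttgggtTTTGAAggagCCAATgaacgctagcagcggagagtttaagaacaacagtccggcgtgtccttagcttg
Cdca8: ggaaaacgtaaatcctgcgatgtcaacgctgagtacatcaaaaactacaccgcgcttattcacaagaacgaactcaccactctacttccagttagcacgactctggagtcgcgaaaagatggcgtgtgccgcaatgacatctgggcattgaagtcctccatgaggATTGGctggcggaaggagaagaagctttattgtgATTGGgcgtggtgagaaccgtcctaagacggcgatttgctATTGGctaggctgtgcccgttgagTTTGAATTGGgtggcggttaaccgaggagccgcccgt
Kif22: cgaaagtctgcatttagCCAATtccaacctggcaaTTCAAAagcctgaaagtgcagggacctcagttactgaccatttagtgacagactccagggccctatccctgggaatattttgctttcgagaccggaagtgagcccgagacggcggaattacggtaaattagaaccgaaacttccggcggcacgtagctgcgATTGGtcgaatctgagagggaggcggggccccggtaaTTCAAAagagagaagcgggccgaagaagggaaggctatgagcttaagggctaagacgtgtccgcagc
Cep55: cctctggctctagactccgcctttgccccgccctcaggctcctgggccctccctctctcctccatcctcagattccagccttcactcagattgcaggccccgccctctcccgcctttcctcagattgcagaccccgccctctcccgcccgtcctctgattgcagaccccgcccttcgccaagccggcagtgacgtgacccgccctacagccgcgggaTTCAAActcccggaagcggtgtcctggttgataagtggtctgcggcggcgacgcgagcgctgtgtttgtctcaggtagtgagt
Birc5: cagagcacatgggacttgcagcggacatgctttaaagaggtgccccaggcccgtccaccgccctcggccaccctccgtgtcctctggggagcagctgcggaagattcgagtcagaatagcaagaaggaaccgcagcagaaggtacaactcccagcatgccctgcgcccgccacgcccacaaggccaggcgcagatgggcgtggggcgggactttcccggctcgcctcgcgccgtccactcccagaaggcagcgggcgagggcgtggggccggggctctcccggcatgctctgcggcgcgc
The homology region matched once in Cdc20, Cdca8 and Cep55 and in 2 places in Kif22, and the CCAAT box matched in 2 places in Cdc20 and Kif22 and in 4 in Cdca8, where 1 match to each motif overlaps. Neither motif's letters are in the Birc5 window. Over the cell cycle list, 18 of 38 windows (47.4%) of 35 genes held the homology region and 29 (76.3%) the CCAAT box, beside 17.9% and 37.4% of all 32851 windows. Of the 6 windows found for the 8 genes that rose in the 12-array fit, 2 held the homology region and 4 the CCAAT box. A match is a description of these letters and not evidence of a bound site.

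Genes of the hair-forming lineages were lower in cKO in HG and in total keratinocytes and somewhat higher in cKO in bulge. The 18 tested genes of hair shaft and inner root sheath had a median difference of -2.81 in HG, -2.30 in total keratinocytes and 0.54 in bulge. At least 2-fold lower in cKO were 13 of them in HG and 16 in total keratinocytes, beside 8.44% and 4.55% of all genes in those pairs, while 5 were at least 2-fold higher in bulge, beside 8.57%. In set 1 the medians were -0.21 in HG, 0.02 in total keratinocytes and -0.18 in bulge. Only 2 of the 18, Krt81 and Hoxc13, were lower in all 3 pairs, beside 15.4% of all tested genes.

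Krt25, a keratin of the inner root sheath, was 9.46, 10.38 and 10.05 in cKO HG, bulge and total keratinocytes, against 13.64, 8.32 and 12.74 in Het. The cKO arrays lay close together, whereas the Het arrays ranged over 5 log2 units from bulge to HG. Krt35, a hair shaft keratin, was 9.55, 7.81 and 9.48 in cKO, against 13.75, 7.13 and 12.34 in Het. Krt28 of the inner root sheath was 9.58, 9.35 and 9.44 in cKO, against 13.42, 8.13 and 12.13 in Het. In the Het HG and Het total keratinocyte arrays these genes were high, and the bulge difference of these 3 keratins had the opposite sign.

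**Figure D3:**
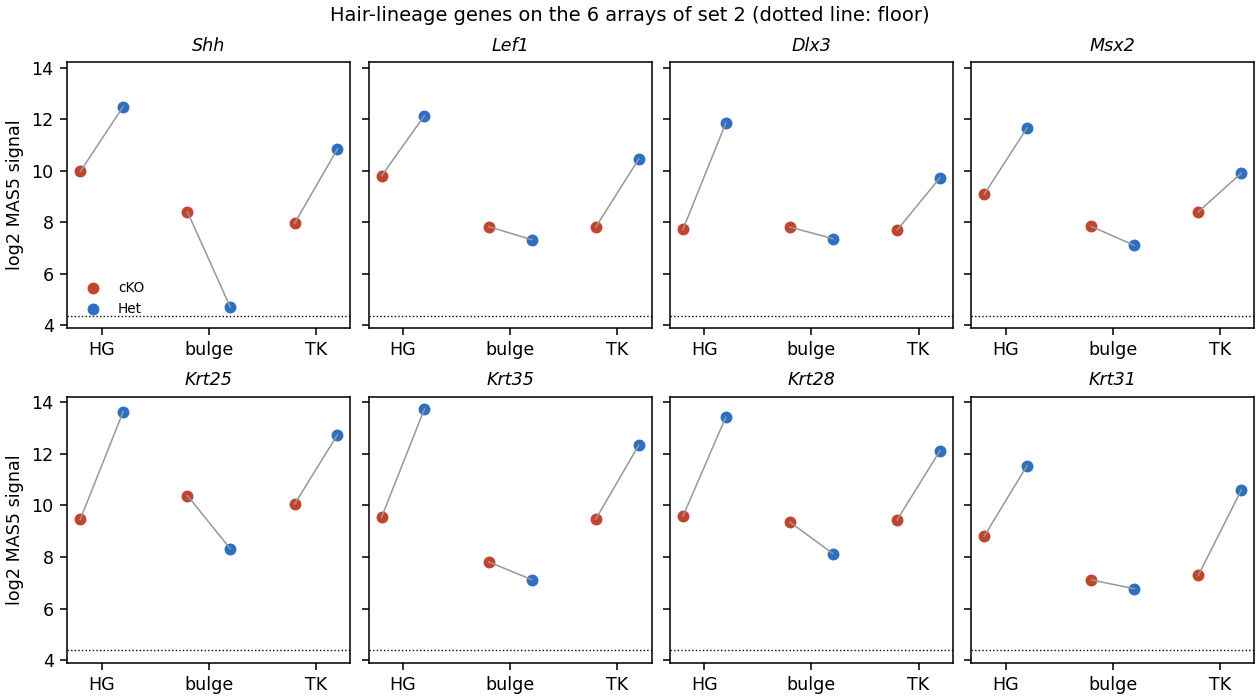
log2 MAS5 signal of 8 hair-lineage genes on the 6 arrays of set 2, with cKO (red) left of Het (blue) in each fraction and the dotted line at the floor of 4.37. In HG and total keratinocytes (TK) all 8 genes are lower in cKO, and in bulge all 8 are higher in cKO, from 0.34 for Krt31 to 3.69 for Shh. Shh was near the floor in Het bulge. The 8 genes were picked by hand and do not stand for their lists. Of the hair germ and early anagen list, 6 of 16 were lower in cKO bulge and 4 higher in cKO HG. Of the hair shaft and inner root sheath list, 3 of 18 were lower in cKO bulge and 2 higher in cKO HG.

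Most early anagen regulators were also lower in cKO HG. Of 16 tested genes of the hair germ and early anagen list, 12 were lower in HG, 6 in bulge and 11 in total keratinocytes. In all 3 pairs 3 were lower and 2 higher, beside 15.4% and 13% of all tested genes. At least 2-fold lower were 9 in HG and 6 in total keratinocytes, beside 8.44% and 4.55% of all genes. Medians were -1.34 in HG, -0.60 in total keratinocytes and 0.26 in bulge, where quantile normalization gave 0.06 and a floor at the pooled median 0.002. Shh, the Hedgehog ligand of the growing hair germ, was 9.97, 8.41 and 7.96 in cKO, against 12.49, 4.71 and 10.85 in Het, so that it was lower by 2.52 in HG and 2.88 in total keratinocytes and higher by 3.69 in bulge. The Het bulge value of Shh lay near the floor, so the size of its bulge difference is uncertain. Its mean difference of -0.57 became -1.13 with a floor at the pooled median and -1.32 when probe sets were averaged. Lef1, the Wnt effector, was 9.80, 7.83 and 7.82 in cKO, against 12.14, 7.33 and 10.46 in Het. The homeobox gene Dlx3 was 7.72, 7.82 and 7.70 in cKO, against 11.85, 7.37 and 9.73 in Het. For all 3 genes the bulge value of cKO exceeded that of Het, and the level of Dlx3 hardly differed among the 3 cKO fractions. Msx2, a homeobox gene of the hair matrix, was 9.09, 7.84 and 8.41 in cKO, against 11.66, 7.11 and 9.91 in Het. Aldh1a3, which makes retinoic acid, was at the floor in cKO HG, against 10.77 in Het HG, and 5.35 in cKO total keratinocytes, against 8.71 in Het. In bulge its order was reversed, at 6.47 in cKO and at the floor in Het.

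Since the bulge pair ran the other way, these genes had large spreads over the 3 pairs and none passed with it in the fit. Leaving out the pair that disagrees lets genes pass whose other 2 pairs agree. The calls below therefore describe HG and total keratinocytes and do not test the pattern over the 3 fractions. Without the bulge pair, limma called 8 keratin genes of the hair shaft and inner root sheath list among the 31 lower genes, from Krt35 with -3.53 (SE 0.35, adjusted p = 0.00854) to Krt71 with -2.54 (SE 0.38, adjusted p = 0.0383). That fit also called Shh, with -2.70 (SE 0.30, adjusted p = 0.00859), Lef1, with -2.49 (SE 0.30, adjusted p = 0.0157), Dlx3, with -3.08 (SE 0.48, adjusted p = 0.0453), and Aldh1a3, with -4.88 (SE 0.68, adjusted p = 0.0304). With the bulge pair in, the adjusted p of Shh was 0.884 and that of Lef1 0.356. Keratin-associated protein genes, which build the matrix of the hair shaft and were not on the list, were called beside them. Krtap8-1 was 10.46 in cKO HG and 7.92 in cKO total keratinocytes, against 13.55 and 12.29 in Het, a difference of -3.73 (SE 0.35, adjusted p = 0.00854 without the bulge pair). Krtap11-1, Krtap15 and Krtap7-1 differed by -3.81, -4.06 and -3.54 in the same fit. These 4 genes were chosen after their values were seen. Highly similar hair keratin and keratin-associated protein genes can cross-hybridize, so single members of these families are uncertain.

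Most sebaceous gland genes, which include enzymes of lipid synthesis, were higher in cKO. Of 10 tested genes of this list, 8 were higher in HG, 9 in bulge and 8 in total keratinocytes. In all 3 pairs 6 were higher, beside 13% of all tested genes, and 0 lower, and 6 were higher with an unadjusted p under 0.05, beside 4.68%. Their median difference was 1.12 in HG, 1.26 in bulge and 0.48 in total keratinocytes, against -0.25, 0.07 and 0.45 in set 1. The HG median was 0.44 with the filter at the 75th percentile, which left 6 genes, and 0.69 after quantile normalization. Far2, which reduces fatty acyl-CoA to the alcohols of wax esters, was 9.04, 10.22 and 9.33 in cKO, against 7.24, 8.31 and 7.99 in Het. It rose by 1.69 (SE 0.22, adjusted p = 0.0184 in the 12-array fit), or 3.21-fold. Cidea, a lipid droplet gene, was 8.62, 9.74 and 10.21 in cKO, against 7.21, 8.31 and 9.07 in Het, but its adjusted p in that fit was 0.0872. The other members that were higher in all 3 pairs were Scd1, Scd3 and Mc5r beside Elovl3, a fatty acid elongase gene. Pparg, the regulator of fat cell genes, was higher by 2.76 in HG and 3.01 in bulge and lower by 0.49 in total keratinocytes.

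Other enzymes of skin lipids rose with Far2. Elovl4, which makes the very long fatty acids of barrier ceramides, was 10.43, 11.70 and 12.79 in cKO, against 9.08, 9.82 and 11.46 in Het, a rise of 1.52 (SE 0.19, adjusted p = 0.0184 in the 12-array fit). Fa2h, which hydroxylates fatty acids of sphingolipids, was 10.04, 11.05 and 10.42 in cKO, against 8.66, 9.56 and 9.36 in Het, a rise of 1.31 (SE 0.19, adjusted p = 0.0344). All 3 pairs of each gene differed by more than 1 log2 unit. Of the epidermal differentiation list, 7 of 17 tested genes were higher in all 3 pairs and 1 lower, beside 13% and 15.4% of all tested genes, with medians of 0.61 in HG, 0.53 in bulge and 0.50 in total keratinocytes. Krtdap, a gene of differentiating keratinocytes, was higher by 2.18, 0.56 and 0.41, and Krt77, a keratin of suprabasal cells, by 2.01, 0.53 and 0.42. None of this list passed in either fit over 3 pairs.

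The other 5 genes that rose in the 12-array fit were of mixed kinds. Cyp2g1, a cytochrome P450 gene, was 10.51, 12.15 and 11.57 in cKO, against 9.21, 9.93 and 9.30 in Het, a rise of 1.92 (SE 0.25, adjusted p = 0.0184) with no overlap between the genotypes. It was also called without the HG pair, with 2.24 (SE 0.38, adjusted p = 3.98e-05). Aadacl2fm1, of the arylacetamide deacetylase family, was 8.03, 9.17 and 8.04 in cKO, against 5.49, 6.74 and 6.36 in Het, a rise of 2.22 (SE 0.29, adjusted p = 0.0184). Ifitm6, of the interferon-induced transmembrane family, was 8.41, 8.28 and 9.68 in cKO, against 6.81, 6.57 and 7.54 in Het, a rise of 1.82 (SE 0.25, adjusted p = 0.0204). Aadacl2fm1 and Ifitm6 did not overlap between the genotypes either. How many of all tested genes also did not overlap was not counted. Genes picked for large differences in the same direction tend not to overlap, so this is description only. Adh1, an alcohol dehydrogenase that oxidises retinol, rose by 1.82 (SE 0.28, adjusted p = 0.0412), with differences of 2.78 in HG, 1.74 in bulge and 0.94 in total keratinocytes. Skint10, of a family of immunoglobulin-like genes of skin, rose by 1.55 (SE 0.24, adjusted p = 0.0412). In set 1 the mean differences of the 8 genes that rose in set 2 lay between -0.40 for Aadacl2fm1 and 0.11 for Adh1.

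Few genes were far apart in every pair. Of 10557 genes whose higher array exceeded the pooled median in every pair and that lay above the floor on all 6 arrays, 17 were at least 2-fold higher and 17 at least 2-fold lower in cKO in all 3 pairs. Beside genes already named, the higher ones with the largest smallest difference included the carnosine synthase gene Carns1, with 1.93, 1.32 and 1.44 in HG, bulge and total keratinocytes, Pou5f2, Rnase1, Crct1 and the netrin receptor gene Unc5c. Unc5c was dim, with 6.80, 6.54 and 6.81 in cKO, against 5.07, 5.16 and 5.22 in Het, and its mean difference of 1.56 became 0.31 with a floor at the pooled median. Among the lower ones was Syt7, a calcium sensor of membrane fusion. It was 4.47, 6.15 and 4.73 in cKO, against 8.92, 8.15 and 7.28 in Het, close to the floor on 2 of the cKO arrays. Mcam, an adhesion molecule gene, differed by -1.37, -1.40 and -2.38, and was lower in cKO in set 1 too, by 1.13, 0.45 and 1.28. The retinol-esterifying enzyme gene Lrat differed by -1.46, -2.50 and -1.18, and the mitochondrial folate enzyme gene Mthfd2 by -1.62, -1.19 and -1.26. Clba1, Adamts3 and Zfp428 completed the 12 lowest. Ranked this way, 8 of the 24 genes were among the 14 of the 12-array fit.

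**Figure D4:**
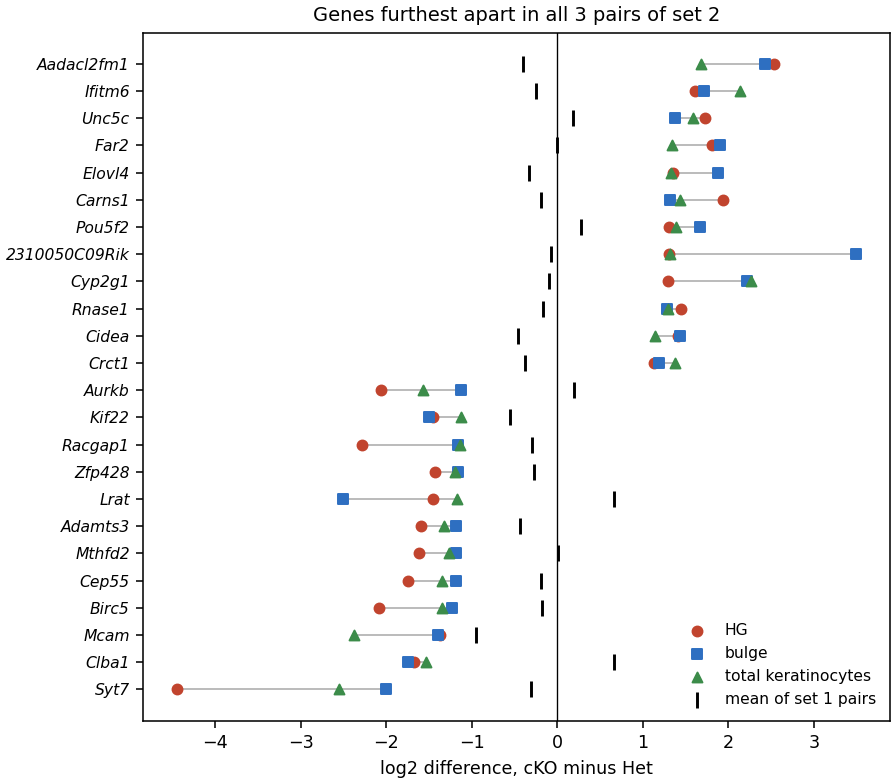
log2 difference (cKO minus Het) in the HG, bulge and total keratinocyte pairs of set 2 for the 12 genes highest and the 12 genes lowest in cKO by their smallest pair difference, with a bar at the mean of the set 1 pairs. All points of the upper 12 genes lie above 1 and all points of the lower 12 below -1, while the set 1 means lie between -0.95 for Mcam and 0.67 for Clba1.

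In the TGF-beta pathway itself, differences were of both signs. Of 18 receptors, Smads and regulators, 9 were higher in cKO in HG, 9 in bulge and 8 in total keratinocytes, and in all 3 pairs 1 was higher and 3 lower. At least 2-fold apart were 3 of the 18 in HG, 1 in bulge and 0 in total keratinocytes. Of the 3 in HG, 1 was higher and 2 lower, beside 16.9% and 8.44% of all genes. The 1 in bulge was higher, beside 8.57%. Tgfbr3, the co-receptor betaglycan, was 11.31, 11.78 and 10.98 in cKO, against 9.17, 10.31 and 10.76 in Het, with a difference of 2.14 in HG and 0.22 in total keratinocytes. Lower in all 3 pairs were Tgif2 and Ski, which repress Smad targets, and Smad7, which blocks the receptors and is induced by the pathway. Smad7 differed by -1.39 in HG, -0.40 in bulge and -0.09 in total keratinocytes. Of 14 genes of ligands and their activation, 5 were lower in all 3 pairs, among them Tgfb1, with -0.46, -1.50 and -0.37, and Ltbp3, which holds latent ligand in the matrix, with -0.86, -1.04 and -0.27. Of all tested genes, 15.4% were lower in all 3 pairs, a share that the 3 of 18 receptor and Smad genes come close to and the 5 of 14 ligand and activation genes exceed.

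The response genes of TGF-beta did not share a direction. Of 19 tested, 2 were higher and 1 lower in all 3 pairs, beside 13% and 15.4% of all tested genes. The medians were 0.73 in HG, which became 0.18 when probe sets were averaged, 0.22 in bulge and -0.13 in total keratinocytes. Klf10, an early target, was 10.71, 11.30 and 11.45 in cKO, against 9.95, 10.56 and 10.52 in Het, and was higher in set 1 too, by 0.88, 1.07 and 0.49. Angptl4, a lipase inhibitor, was higher by 0.79, 1.14 and 0.31. Tmeff1, a transmembrane inhibitor of related signals, was 6.58, 7.44 and 7.08 in cKO, against 9.32, 7.22 and 7.86 in Het, with differences of -2.74, 0.22 and -0.78. The matrix gene Tgfbi was higher by 2.45 in HG alone, with -0.30 in bulge and 0.44 in total keratinocytes. Ccn2, another matrix gene induced by TGF-beta, was called lower without the HG pair, with -1.39 (SE 0.33, adjusted p = 0.0394 in limma), while in the HG pair left out it was higher by 0.91, at 12.41 in cKO and 11.50 in Het.

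The BMP response list shares Dlx3 with the hair germ and early anagen list, so the results of these lists are not separate. Of 10 tested BMP response genes, 8 were lower in cKO in HG, 7 in bulge and 7 in total keratinocytes. In all 3 pairs 4 were lower, beside 15.4% of all tested genes, and 0 higher, and 4 were lower with an unadjusted p under 0.05, beside 4.45%. Medians were -0.73 in HG, -0.12 in bulge, which became 0.02 after quantile normalization, and -0.98 in total keratinocytes, which became -0.38 without a filter and -0.59 with a floor at the pooled median. Smad6, an inhibitor that BMP induces, was 7.60, 8.64 and 6.36 in cKO, against 9.62, 9.14 and 7.66 in Het, a mean difference of -1.28 (SD 0.76), and in set 1 its differences were -0.76, -0.80 and -0.65. Msx1 differed by -3.77, -0.15 and -1.80. The Id genes, whose products block differentiation factors, differed less. Id2 was 11.20, 14.14 and 11.61 in cKO, against 12.05, 14.28 and 11.71 in Het, with a mean of -0.36 (SD 0.42). Id3 averaged -0.30 (SD 0.45). Id1 averaged 0.26 (SD 0.97), with -0.40 in HG, -0.19 in bulge and 1.37 in total keratinocytes. None of these 3 Id genes passed, with adjusted p between 0.711 for Id2 and 0.855 for Id1 in limma over set 2. Among ligands, Bmp4 was higher in all 3 pairs, by 0.62, 0.99 and 0.64, and the decoy receptor gene Bambi differed by -2.43 in HG, 0.65 in bulge and -1.51 in total keratinocytes.

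In the Hedgehog list, 2 of 8 tested genes were lower in all 3 pairs and 0 higher, beside 15.4% and 13% of all tested genes. Its median was -1.13 in total keratinocytes, while those of -0.35 in HG and -0.14 in bulge became 0.004 and 0.001 when all probe sets of a gene were averaged. Gli1, the readout of Hedgehog activity, was 9.18, 7.65 and 7.08 in cKO, against 9.94, 8.95 and 7.96 in Het, a mean difference of -0.98 (SD 0.28). It was lower in cKO bulge by 1.30, although Shh itself was higher there, against a Het value near the floor. Ptch1, the receptor and a target, differed by -0.82, 0.01 and -1.37. Of 14 Wnt response genes, 2 were higher and 2 lower in all 3 pairs, beside 13% and 15.4% of all tested genes. In HG 3 were at least 2-fold lower and 0 higher, beside 8.44% and 16.9% of all genes. The medians were -0.30 in HG, 0.05 in bulge and 0.09 in total keratinocytes, and when probe sets were averaged those of bulge and total keratinocytes changed sign to -0.41 and -0.06. Cdh3, the P-cadherin gene of the sort, was lower in all 3 pairs, with 9.22, 8.02 and 9.54 in cKO, against 10.61, 9.10 and 10.07 in Het (unadjusted p = 0.00509 and adjusted p = 0.295 in limma over set 2). Its mean difference of -0.998 became -0.417 when probe sets were averaged, so its size depends on the probe set. The gate used its protein, so the HG and bulge values also bear on the sort.

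**Figure D5:**
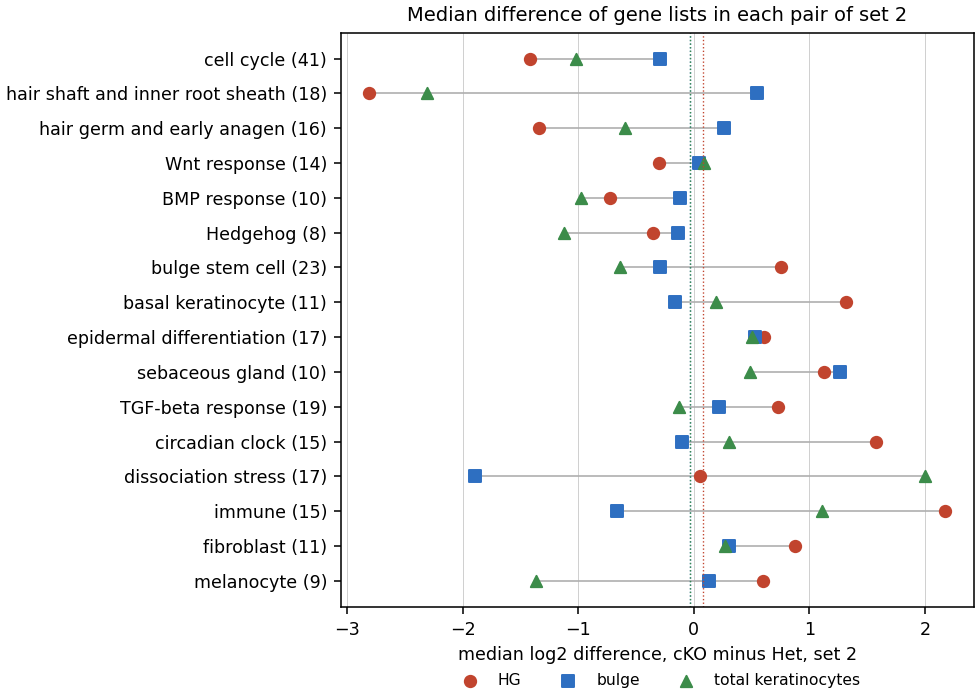
Median log2 difference (cKO minus Het) of the tested genes of 16 lists in the HG, bulge and total keratinocyte pairs of set 2, with the number of genes in brackets and dotted lines at the medians of all tested genes. Cell cycle medians are below 0 in all 3 pairs and sebaceous gland medians above 0, while hair shaft genes (-2.81, 0.54 and -2.30) and dissociation stress genes (0.05, -1.89 and 2.00) differ in sign between pairs.

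A further group of genes was higher in cKO in both stem cell fractions. All 15 genes called without the total keratinocyte pair were higher. Neat1, a nuclear long noncoding RNA, had a difference of 2.86 (SE 0.31, adjusted p = 0.0131), and Zbtb16, a transcription factor gene that glucocorticoids induce, differed by 2.87 (SE 0.33, adjusted p = 0.0131). Fkbp5, a co-chaperone of the glucocorticoid receptor and its target, differed by 2.16 (SE 0.30, adjusted p = 0.0309). In total keratinocytes these 3 genes differed by -0.40, 0.31 and -0.79. In set 1 Neat1 was also higher in cKO, by 0.85 in HG and 1.58 in bulge, and Zbtb16 by 0.94 in bulge. The other set 1 differences were 0.12 for Zbtb16 in HG, and 0.18 in HG and -0.51 in bulge for Fkbp5. The limma test of stem cell fractions against total keratinocytes, given below, called 0 of 11931 genes. Sema3d, Gm13306 and Fam107a differed by more than 3 in the same fit. In bulge of set 1 these 3 genes were higher in cKO too, by 0.125, 1.865 and 0.589. In HG of set 1 they differed by 0.686, 0.016 and -0.075. Of the 15 genes called in this fit, only Fkbp5 and Adh1 (-0.018) were lower in cKO in bulge of set 1. Of these 15 genes, only Adh1 was also among the 14 of the 12-array fit. They were chosen after their values were seen.

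Basal keratinocyte and circadian clock genes were higher in cKO in the HG pair. The 11 basal keratinocyte genes were all higher in cKO HG, with a median of 1.31, and 8 of them at least 2-fold, beside 16.9% of all genes. In bulge their median was -0.17 and in total keratinocytes 0.19. Col17a1 of the hemidesmosome was 14.46 in cKO HG and 12.61 in Het HG, against 14.92 and 15.24 in cKO and Het bulge. Dst, which anchors keratins there, differed by 2.45 in HG, 0.51 in bulge and 0.06 in total keratinocytes. Of 23 bulge stem cell genes, 18 were higher in cKO HG and 11 of them at least 2-fold, beside 16.9% of all genes. In contrast, 15 of the 23 were lower in cKO bulge and 17 in total keratinocytes. Circadian clock genes had a median of 1.57 in HG, with 9 of 15 at least 2-fold higher, beside 16.9% of all genes, against -0.10 in bulge and 0.31 in total keratinocytes. The HG median became 1.14 with a floor at the pooled median. In bulge 3 of the 15 clock genes were at least 2-fold lower and 0 higher, beside 6.41% and 8.57% of all genes. Of 13 CDK inhibitor and growth arrest genes, 1 was higher and 3 lower in all 3 pairs, beside 13% and 15.4% of all tested genes. Their medians were 0.35 in HG, which changed sign to -0.14 after quantile normalization, -0.04 in bulge, and -0.12 in total keratinocytes, which changed sign to 0.05 when probe sets were averaged. Among the 3 lower ones was Cdkn2c, whose product inhibits the cyclin D kinases, lower by 0.90, 0.70 and 0.42.

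Immediate early genes, which rise when tissue is taken apart, differed in opposite directions between the pairs. Of 17 such genes, 14 were at least 2-fold higher in cKO total keratinocytes and 14 at least 2-fold lower in cKO bulge, beside 2.8% and 6.41% of all genes. The medians were 2.00 and -1.89, against 0.05 in HG. Their mean level was 10.87, 10.79 and 13.41 on the cKO arrays of HG, bulge and total keratinocytes, against 10.34, 12.67 and 11.29 on the Het arrays. The cKO total keratinocyte array and the Het bulge array thus stood high. Nr4a1 was 8.97, 7.88 and 12.89 in cKO, against 8.51, 10.87 and 8.14 in Het. Atf3 was 14.17 in cKO total keratinocytes and 9.47 in Het. These genes moved against the hair-lineage genes in bulge and in total keratinocytes, and their part in the other differences was not tested.

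Immune markers were higher in cKO in HG and total keratinocytes. All 15 measured markers of the 16 on the list were tested, none was at the floor on all 6 arrays, and 13 were at least 2-fold higher in cKO HG and 11 in total keratinocytes, beside 16.9% and 2.8% of all genes. The medians were 2.17 in HG, -0.66 in bulge and 1.11 in total keratinocytes in set 2, and 0.36, 0.06 and 0.86 in set 1. Their mean level lay between 8.45 and 10.05 on the cKO arrays and between 7.56 and 9.18 on the Het arrays. Cd207, the langerin gene of Langerhans cells, was 8.54, 7.05 and 9.39 in cKO, against 6.17, 6.42 and 7.58 in Het. The class II gene H2-Aa was called higher without the bulge pair, with 1.80 (SE 0.29, adjusted p = 0.0499 in limma). Fibroblast markers had medians of 0.88, 0.31 and 0.27, against 0.37, 0.82 and 0.67 in set 1. Their mean level lay between 9.95 and 13.02 on the cKO arrays and between 9.33 and 12.70 on the Het arrays, highest in bulge. Melanocyte markers had medians of 0.60, 0.13 and -1.36, the bulge value changing sign to -0.004 after quantile normalization and reaching 0.87 when probe sets were averaged. In total keratinocytes, where hair shaft genes were lower too, 6 of 9 were at least 2-fold lower in cKO, beside 4.55% of all genes. Endothelial markers averaged 6.80, 7.29 and 5.33 on the cKO arrays of HG, bulge and total keratinocytes, against 5.66, 6.11 and 5.49 on the Het arrays. Of 8 tested, 5 were at least 2-fold higher in cKO HG and 3 in cKO bulge, beside 16.9% and 8.57% of all genes. The endothelial medians were 1.41, 0.66 and -0.19. The part of these cell types in the differences of the same pairs was not tested.

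Whether the genotype difference of set 2 differed from that of set 1 was tested on all 12 arrays. In limma 1 of 12738 genes passed (0.00785%), the zinc finger gene Zfp874a, and 786 had an unadjusted p under 0.05. The differences of the 14 genes of the 12-array fit were not shown to be particular to set 2. The difference between sets was -1.38 for Birc5 (SE 0.36, adjusted p = 0.592), -0.89 for Cdc20 (SE 0.32, adjusted p = 0.761), 1.69 for Far2 (SE 0.31, adjusted p = 0.191) and 1.85 for Elovl4 (SE 0.27, adjusted p = 0.112). Whether the genotype difference of the stem cell fractions differed from that of total keratinocytes was tested within set 2, with 1 residual degree of freedom. Of 11931 genes 0 passed in limma (0%), 399 had an unadjusted p under 0.05 and the smallest adjusted p was 0.803.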

How the data were processed

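Labelled cRNA from 2 µg of total RNA of each sorted fraction was hybridized to an Affymetrix array, 1 array for each of 12 combinations of genotype, fraction and set. The deposited values are MAS5 signal intensity on a linear scale, per the submitters' processing notes, which name no version. Each array of the deposited values has a mean of 500 once its top 2% and bottom 2% are set aside. Of 45101 probe sets, 64 controls were left out, 34945 had 1 gene symbol, 932 several and 9160 none, and 34741 symbols were updated by gene ID. The probe set with the highest mean log2 signal stood for each of 18193 genes. The pooled 25th percentile (20.7) served as a floor before log2, which makes differences that involve it lower bounds. A gene entered a fit if at least 2 of its arrays lay above the pooled median (84.7). Tests were two-sided in limma 3.58.1 (R 4.3.3), using lmFit and trended eBayes with fraction as a block, and Benjamini-Hochberg adjustment at 0.05. The smallest p that an exact sign-flip test of 3 pairs allows is 0.25, so no such test is given. Precision is set by the small number of arrays.

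Named genes were those followed on all arrays (Tgfbr2, Cdh3, Cd34, Tmeff1, Id1, Id2, Id3, Mki67, Shh and Lef1), up to 12 genes in each direction called in set 2 and up to 6 called in an interaction, the 12 in each direction with the largest smallest-pair difference, the 8 highest and lowest of each single fraction, the called members of each list and up to 4 with the largest mean difference, and any that a small count called for. The comparison, the 30 lists of 409 genes, of which 386 were measured, and the alternatives were chosen with earlier results of these data known. Fits were tested on simulated data. The alternatives covered normalization, floor, filter, probe sets, eBayes settings, block, arrays in the fit, fold minimum and leaving out each pair.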

Additional observations from a re-analysis of the deposited data

Results flagged for a closer look

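The zinc finger gene Zfp874a was picked out because its genotype difference in set 2 differed from that in set 1, the only gene for which limma's test over 12 arrays gave this result. The 2 differences lay 5.01 log2 units apart (SE 0.52), with an adjusted p of 0.00547. A single probe set stands for this gene here, so no other probe set bears on its values. In set 2 it was 8.13, 8.31 and 7.32 in cKO HG, bulge and total keratinocytes, against 7.10, 6.57 and 5.67 in Het, higher in cKO in 3 of 3 pairs. In set 1 it was 4.88, 4.58 and at the floor of 4.37 in cKO, against 8.49, 7.90 and 8.08 in Het, lower in cKO in 3 of 3 pairs. Its adjusted p in limma was 0.115 without the HG pair of set 1, 0.0696 without the total keratinocyte pair of set 1, 0.282 with HG and bulge arrays only, 0.0982 with a floor at the pooled median and 0.419 without a filter, so the call was lost in each. In the other alternatives that tested it, the adjusted p lay between 0.00467 and 0.0481.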

How the results depend on the processing

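The count of 0 genes over the 3 pairs of set 2 became 14 with the spread of 12 arrays and lay between 13 and 35 when 1 pair was left out. It was 0 under the other 10 alternatives, with a smallest adjusted p of 0.0627 (robust eBayes) in limma where one was computed. The single gene that differed between sets was lost, leaving 0, with a floor at the pooled median, without a filter, with a filter at the 75th percentile, or with the 8 HG and bulge arrays only. Leaving out 1 pair gave between 0 and 14 such genes, with 14 without the bulge pair of set 2 and 12 without its total keratinocyte pair. The count for stem cell fractions against total keratinocytes was 0 in all 8 alternatives. A 4-fold minimum left 720 genes apart in HG, 415 in bulge and 134 in total keratinocytes. The count of cell cycle genes lower in every pair stayed within 1.5 times of 30 throughout, and that of sebaceous genes higher in every pair became 3 of 6 tested with the filter at the 75th percentile.

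Quantile normalization moved the median difference of all tested genes in HG to -0.03, against 0.08 as deposited, and that in bulge to -0.10, against -0.03. It turned the bulge medians of BMP response genes to 0.016 and of melanocyte markers to -0.004 (-0.025 without a filter), and the HG median of CDK inhibitor and growth arrest genes to -0.139. Averaging probe sets turned the Hedgehog medians to 0.004 in HG and 0.001 in bulge and the total keratinocyte median of CDK inhibitor and growth arrest genes to 0.045. Leaving out 1 pair gave differences between -2.70 and 0.59 for Shh, between -0.47 and 0.14 for Cd34 and between -0.30 and 0.59 for Id1. For Shh the cKO value was higher without either the HG pair (0.41) or the total keratinocyte pair (0.59). The causes of these moves were not tested. No paired analysis by replicate number was possible because each genotype and fraction had 1 array per set; pairs are by fraction.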
